A study of Homo sapiens with 6 samples.

Results

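Wnt and beta-catenin signalling was examined through 10 genes, out of the 29476 genes whose RNA was counted. The 10 were chosen by name for their roles in the pathway, with earlier results of these data known. They are the receptors LRP5, LRP6 and FZD6, beta-catenin itself (CTNNB1) and its DNA-binding partner TCF7L2, the destruction complex scaffolds AXIN1 and AXIN2, the receptor-degrading ubiquitin ligases RNF43 and ZNRF3, and the secreted antagonist DKK1. All 10 passed the filter on low counts, with between 135 and 14211 reads in a library, and all 10 were tested. The cells were A549, an established human lung adenocarcinoma line grown in MEM with fetal bovine serum and antibiotics. Poly(A) RNA was sequenced in dUTP-stranded libraries from 3 siCtrl and 3 siDDX17 samples, and the question was what changes when DDX17, a DEAD-box RNA helicase, is depleted. Cells of both groups were transfected with Lipofectamine 2000, siCtrl with a control siRNA and siDDX17 with an siRNA against DDX17, although another field of the labels calls the control a plasmid. A harvest at 48 h is given for RT-qPCR, and no time is given for the sequenced RNA in the sources used here. The comparison therefore rests on 1 siRNA sequence in 1 cell line, and although the study describes biological replicates, the labels do not say that they came from separate cultures, so p-values measure the spread between these libraries.

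Canonical Wnt signalling starts when a Wnt ligand brings a Frizzled receptor and LRP5 or LRP6 together at the cell surface. Without that signal, a destruction complex built on AXIN and APC marks beta-catenin for degradation, and with it beta-catenin accumulates, enters the nucleus and acts with TCF and LEF factors on target genes. RNF43 and ZNRF3 remove Frizzled receptors and DKK1 blocks LRP5 and LRP6, so the pathway is also controlled from outside the cell, and in lung epithelium it takes part in development and repair.

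Libraries held between 30658136 and 39182371 counted reads. DDX17 was at 177, 184 and 206 CPM in siCtrl and at 32.1, 30.8 and 30.4 CPM in siDDX17, where CPM is the number of a gene's reads in 1000000 reads of the TMM-scaled library. That is a log2 fold change of -2.60 (SE 0.0685, adjusted p = 5.89e-11), and the groups were far apart. Genes were tested with the quasi-likelihood test of edgeR, with p-values adjusted by the Benjamini-Hochberg method over the 15615 genes that passed the filter, and a gene was said to rise or fall at an adjusted p under 0.05. Epithelial markers were present, and most moved with the knockdown. The keratin KRT8 was at 3126 to 3416 CPM in siCtrl and 2625 to 2856 CPM in siDDX17 (adjusted p = 0.00216), and KRT18 (adjusted p = 0.0332) and KRT19 (adjusted p = 0.00418) were also lower. EPCAM was at 0.738 to 1.08 CPM in siCtrl and higher, at 2.21 to 2.28 CPM, in siDDX17 (adjusted p = 7.68e-05), and CDH1 was at 14.7 to 17.8 CPM over the 6 libraries (adjusted p = 0.247). The part of these shifts in the results below was not tested. The alveolar type 2 markers NKX2-1, SFTPC and SFTPB did not exceed 0.493 CPM. Of 8 markers of leukocytes, endothelium and fibroblasts that were matched, 7 stayed at or under 0.3 CPM in every library, and CD14 was at 20.7 to 28.8 CPM. In bulk RNA, fewer cells of a type and less RNA per cell cannot be told apart.

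After DDX17 knockdown, 4 of the 10 genes rose (LRP5, LRP6, AXIN1 and DKK1), 3 fell (CTNNB1, TCF7L2 and ZNRF3), and 3 did not pass the test (FZD6, AXIN2 and RNF43). Changes were widespread in these cells. Of all genes tested, 24.5% rose and 24.3% fell, 48.8% in all, so 7 of 10 has to be read against a background of about every other gene. The median log2 fold change of the 10 genes was 0.15, and that of all tested genes was 0.01. The largest change among the 10, a log2 fold change of 0.65 for LRP6, was below 1, a limit that 7.57% of all tested genes passed together with the adjusted p (4.65% higher and 2.92% lower). With the limits stated in the study's methods, an unadjusted p under 0.01 and a fold change over 1.5, 3 of the 10 were called, LRP5, LRP6 and AXIN1, all higher, against 19% of all genes (11% higher and 8.03% lower). In the fit used here these limits called 1713 genes higher and 1254 lower. The study reports fewer in each direction, so these calls are not the study's own. In the 7 genes that passed, the values of the groups did not overlap (4 higher and 3 lower), as in 56.5% of all genes tested.

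**Figure D1:**
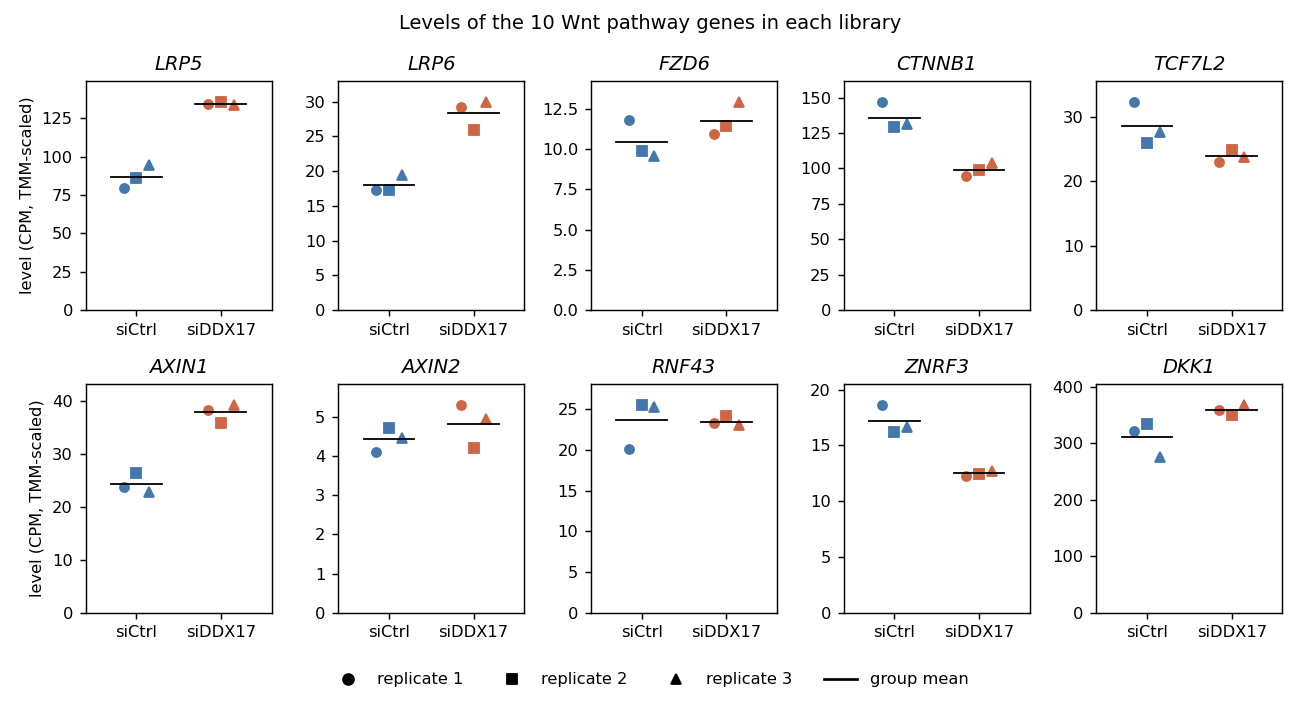
Level of each of the 10 genes in CPM (TMM-scaled, linear axes from 0) in the 3 siCtrl and 3 siDDX17 libraries, with a point for each library and a line at each group mean. LRP5, LRP6, AXIN1 and DKK1 were higher in every siDDX17 library than in every siCtrl library, CTNNB1, TCF7L2 and ZNRF3 were lower, and FZD6, AXIN2 and RNF43 overlapped.

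The Wnt co-receptors LRP5 and LRP6 rose by nearly the same fold. These single-pass proteins of the LDL receptor family are alike in build, with 1615 and 1613 codons in 23 exons each. LRP5 (ENSG00000162337.11) lies on the plus strand of chr11:68312591-68449275 of GRCh38. It was at 79.4, 85.8 and 94.2 CPM in siCtrl and at 134, 136 and 133 CPM in siDDX17. The siDDX17 libraries lay close together and well above the highest control. The mean went from 86.5 ± 7.40 to 134 ± 1.11 CPM (SD, n = 3 each), a rise of 55.4% (log2 fold change 0.64, SE 0.0647, adjusted p = 3.56e-06). The exact two-sided permutation test of a single gene gave p = 0.1, the smallest that 3 against 3 libraries allow, and it gave the same p for each of the 7 genes whose groups did not overlap.

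LRP5 was also chosen by the study for an assay of splicing, and the primers show where. The forward primer lies in exon 5 (chr11:68365605-68365624). The capitals in the reverse primers mark the 10 bases that both share, complementary to the last bases of exon 5, which ends at 68365702.
LRP5 forward: ctcccacctgtgcctgctgt
LRP5 reverse M: ctcctcggctcCTGCCTTACA
LRP5 reverse AS: gcacacggaaCTGCCTTACA
Reverse primer M continues into exon 6, which starts at 68386316, and matched 2 of the 7 LRP5 transcripts of GENCODE 44. Reverse primer AS matched 0 of them. Its other 10 bases matched once in the intron of 20613 bases between these exons, at 68375231, directly after the bases AG. The counts given here are summed over the gene and do not separate transcripts that use these acceptors.

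The start of LRP5 is rich in GC. RefSeq promoter windows (GRCh38.p14, 250 bases before to 50 after a start) were matched for 6 of the 10 genes, in 9 windows, and LRP6, FZD6, AXIN2 and ZNRF3 were not matched. The motifs looked for were searched on both strands and did not overlap each other: the TCF motif, written as CTTTGAT or CTTTGAA and held by 6.86% of all 35116 promoters, the TATA motif TATAAA, held by 11.5%, and the GC box GGGCGG, held by 45.0%. In the LRP5 window GC made up 86.7% of bases, against a median of 58.7% over all promoters, and it held 3 GC boxes and no match to the other motifs. The 100 bases before the start are shown because LRP5 had the most RNA per length of the 3 receptors, with a GC box in capitals (chr11:68312491-68312590, plus strand).
LRP5 promoter: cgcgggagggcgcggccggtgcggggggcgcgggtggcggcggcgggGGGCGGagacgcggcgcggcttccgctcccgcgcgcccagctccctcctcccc

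LRP6 (ENSG00000070018.8, chr12:12116025-12267044, minus strand) was at 17.3, 17.2 and 19.5 CPM in siCtrl and at 29.2, 25.9 and 30.0 CPM in siDDX17. The lowest knockdown library was again above the highest control. The mean rose by 57.4%, from 18.0 ± 1.29 to 28.4 ± 2.13 CPM (SD, n = 3), with a log2 fold change of 0.65 (SE 0.0813, adjusted p = 2.18e-05). The ratio of LRP5 to LRP6 reads was therefore much the same in both groups. On the log2 scale it was 2.26 ± 0.0593 in siCtrl and 2.25 ± 0.122 in siDDX17 (SD, n = 3), a difference of -0.02 with overlapping values (exact two-sided permutation test, p = 0.9), and leaving out a library moved that difference between -0.08 and 0.03, on either side of 0. No exonic base of LRP5 or LRP6 is shared with another gene of GENCODE 44.

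FZD6 (ENSG00000164930.11, chr8:103298433-103332866, plus strand), a Frizzled receptor of 706 codons, was at 11.8, 9.89 and 9.55 CPM in siCtrl and at 10.9, 11.4 and 12.9 CPM in siDDX17. The groups overlapped, since siCtrl 1 was above both siDDX17 1 and siDDX17 2. The log2 fold change was 0.18 with a 95% interval from -0.03 to 0.38 (adjusted p = 0.176), so a rise of the size seen for LRP5 lies outside the interval and a small one does not. Without siCtrl 1 the log2 fold change was 0.27 and the adjusted p 0.0209, and with scaling by library size only they were 0.30 and 0.0478.

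Beta-catenin RNA fell. CTNNB1 (ENSG00000168036.16, chr3:41194741-41260096, plus strand, 781 codons) encodes the protein that carries the signal to the nucleus and also links cadherins to the cytoskeleton. It was at 147, 129 and 131 CPM in siCtrl and at 94.8, 99.1 and 104 CPM in siDDX17. Every knockdown library was below every control, and the gap was wider than the range of the control group. The mean fell by 27.0%, from 136 ± 9.65 to 99.2 ± 4.43 CPM (SD, n = 3), with a log2 fold change of -0.45 (SE 0.0639, adjusted p = 6.30e-05). No exonic base of CTNNB1 is shared with another gene.

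TCF7L2 (ENSG00000148737.15, chr10:112950247-113167678, plus strand, 619 codons) is the TCF factor through which beta-catenin acts in many epithelia. It was at 32.3, 25.9 and 27.7 CPM in siCtrl and at 22.9, 24.8 and 23.8 CPM in siDDX17. The groups did not overlap, but siDDX17 2 and siCtrl 2 were close together. The mean fell by 16.7%, with a log2 fold change of -0.26 (SE 0.0838, adjusted p = 0.0185). This was the least certain of the 3 falls. Without siDDX17 1 the adjusted p was 0.0751 at a log2 fold change of -0.24, without siDDX17 3 it was 0.0610 at -0.26, and with scaling by library size only it was 0.228 at -0.14.

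**Figure D2:**
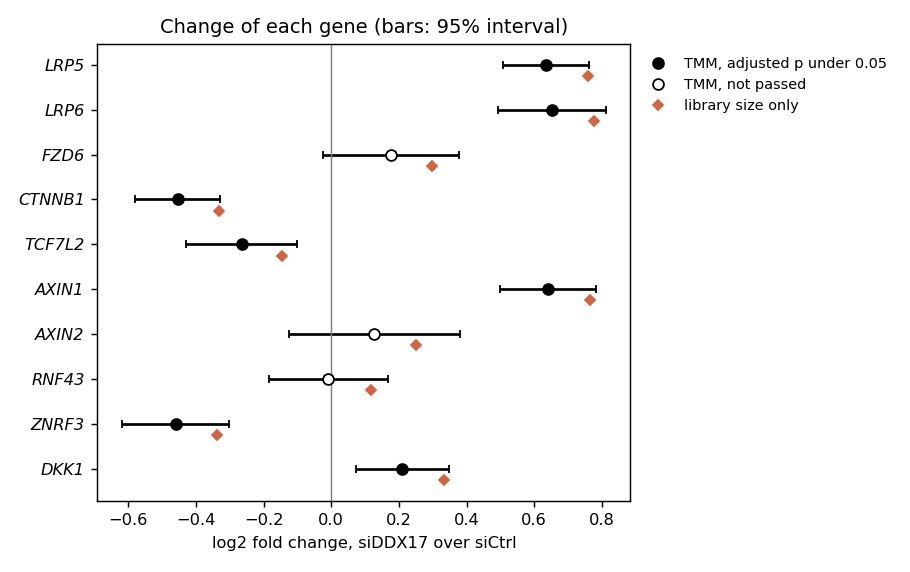
Log2 fold change (siDDX17 over siCtrl) of each gene from the TMM-scaled quasi-likelihood fit, as circles with 95% intervals, filled where the adjusted p was under 0.05, and the same value with library size only as diamonds. Diamonds lie to the right of the circles for all 10 genes, and only for RNF43 are they on opposite sides of 0.

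The AXIN paralogs differed from each other. AXIN1 (ENSG00000103126.14, chr16:287440-352723, minus strand, 862 codons) is the scaffold that holds APC, GSK3 and casein kinase 1 around beta-catenin. It was at 23.7, 26.4 and 22.9 CPM in siCtrl and at 38.4, 35.9 and 39.4 CPM in siDDX17. All 3 knockdown libraries were well above the controls. The mean rose by 55.8%, from 24.3 ± 1.82 to 37.9 ± 1.78 CPM (SD, n = 3), with a log2 fold change of 0.64 (SE 0.0727, adjusted p = 9.27e-06). The AXIN1 promoter window held 8 GC boxes, no TCF motif and no TATA motif, and GC made up 78% of its bases. Such windows were not particular to genes that rose, since that of CTNNB1, which fell, held 3 GC boxes and 74% GC. The part of the promoters in the changes was not tested. The 100 bases before the start are shown with GC boxes in capitals, here as the complement CCGCCC, for comparison with LRP5, which rose by a like amount (chr16:352724-352823, minus strand, 5′ to 3′).
AXIN1 promoter: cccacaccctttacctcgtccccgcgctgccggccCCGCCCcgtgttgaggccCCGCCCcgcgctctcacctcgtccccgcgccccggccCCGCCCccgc

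AXIN2 (ENSG00000168646.12, chr17:65528563-65561648, minus strand, 843 codons) does the same work and is itself a standard target gene of beta-catenin. It was at 4.10, 4.72 and 4.46 CPM in siCtrl and at 5.32, 4.20 and 4.96 CPM in siDDX17. The groups overlapped, with siDDX17 2 below 2 of the 3 controls. The log2 fold change was 0.13, with a 95% interval from -0.12 to 0.38 (adjusted p = 0.439). Another gene on the same strand covers 25.3% of its exonic bases, and how the counting treated shared bases is not given in the sources used here.

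Within a library the ratio of AXIN1 to AXIN2 reads can be compared without any scaling between libraries. There were 5.78, 5.59 and 5.13 AXIN1 reads to 1 AXIN2 read in the siCtrl libraries, against 7.21, 8.56 and 7.94 in the siDDX17 libraries. The groups did not overlap. On the log2 scale the ratio went from 2.46 ± 0.0880 to 2.98 ± 0.123 (SD, n = 3), a difference of 0.52 (exact two-sided permutation test, p = 0.1, the smallest possible), and between 0.46 and 0.59 when a library was left out. These ratios were added after the values of the single genes were known.

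The ubiquitin ligases RNF43 and ZNRF3 also parted. ZNRF3 (ENSG00000183579.15, chr22:28883572-29057488, plus strand, 936 codons) was at 18.7, 16.2 and 16.6 CPM in siCtrl and at 12.3, 12.5 and 12.7 CPM in siDDX17. The knockdown libraries were nearly alike and all below the controls. The mean fell by 27.3%, from 17.2 ± 1.31 to 12.5 ± 0.225 CPM (SD, n = 3), with a log2 fold change of -0.46 (SE 0.0813, adjusted p = 0.000401). RNF43 (ENSG00000108375.12, chr17:58353676-58417595, minus strand, 783 codons) was at 20.1, 25.6 and 25.2 CPM in siCtrl and at 23.3, 24.1 and 23.0 CPM in siDDX17. Its knockdown values all lay inside the range of the controls. The log2 fold change was -0.01, with a 95% interval from -0.18 to 0.17 (adjusted p = 0.946), and its sign turned with scaling by library size only (0.12). Other genes, among them a readthrough gene on the same strand, cover 69.0% of the exonic bases of RNF43, so its count is uncertain.

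The log2 ratio of ZNRF3 to RNF43 reads went from -0.45 ± 0.303 in siCtrl to -0.91 ± 0.0506 in siDDX17 (SD, n = 3). The difference was -0.46, and the groups did not overlap (exact two-sided permutation test, p = 0.1, the smallest possible). It leaned on siCtrl 1, where the ratio was nearest to even, and without that library the difference was -0.28.

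**Figure D3:**
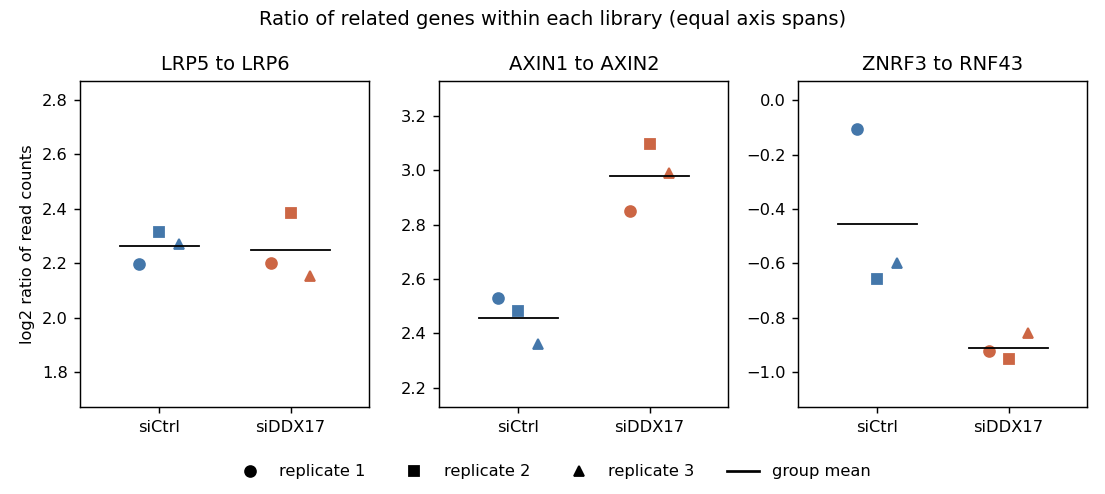
Log2 ratio of read counts within each library for LRP5 to LRP6, AXIN1 to AXIN2 and ZNRF3 to RNF43, with a point for each library, a line at each group mean (n = 3) and axes of equal span that do not start at 0. The LRP5 to LRP6 ratio overlapped between the groups, the AXIN1 to AXIN2 ratio was higher in every siDDX17 library, and the ZNRF3 to RNF43 ratio was lower, with siCtrl 1 apart from the other controls.

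DKK1 (ENSG00000107984.9, chr10:52314281-52318042, plus strand, 266 codons) binds LRP5 and LRP6 from outside the cell and keeps them from Wnt ligands. It was at 321, 335 and 275 CPM in siCtrl and at 359, 349 and 369 CPM in siDDX17. The groups did not overlap, although siCtrl 2 came close to siDDX17 2. The mean rose by 15.7% with a log2 fold change of 0.21 (SE 0.0703, adjusted p = 0.0241). Without siCtrl 3 the log2 fold change was 0.13 and the adjusted p 0.121. Without siDDX17 1 (adjusted p = 0.0712) or siDDX17 3 (adjusted p = 0.1004) the call was lost while the log2 fold change stayed at 0.21 and 0.19. Another gene on the opposite strand covers 10.2% of its exonic bases.

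Among the 6 genes with a matched window, DKK1 differed from the others in the TCF and TATA motifs. Of the 9 windows, that of DKK1 was the only one with a TCF motif, and the only one with a TATA motif, 1 match each. The stretch is shown for that contrast with LRP5 and AXIN1, with the TCF motif first and the TATA motif second in capitals (chr10:52314181-52314280, plus strand). A match in letters is a description and not a binding site.
DKK1 promoter: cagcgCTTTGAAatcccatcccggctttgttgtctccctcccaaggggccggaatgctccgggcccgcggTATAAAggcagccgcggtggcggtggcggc
The DKK1 window also held 1 GC box, and GC made up 63.7% of its bases. The CTNNB1 window held 3 GC boxes (74% GC) and the first TCF7L2 window 5 (65.7% GC), while the RNF43 windows held none of the motifs.

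Levels of different genes were compared per length, in FPKM as deposited. In siCtrl, DKK1 was by far the most abundant, at 159 ± 15.3 FPKM (SD, n = 3), followed by CTNNB1 at 31.3 ± 2.88 and LRP5 at 15.3 ± 1.23. AXIN1 at 6.11 ± 0.355 and TCF7L2 at 6.06 ± 0.830 FPKM came next and did not differ beyond their spread. RNF43 (2.93 ± 0.330 FPKM) was apart from these but not from FZD6 (2.43 ± 0.329 FPKM), nor was FZD6 from ZNRF3 (2.26 ± 0.223 FPKM). LRP6 at 1.65 ± 0.128 and AXIN2 at 0.873 ± 0.0404 FPKM were lowest and apart from their neighbours, so the controls held far more LRP5 than LRP6 RNA per length. In siDDX17, DKK1 still led at 201 ± 7.81 FPKM. LRP5 at 26.1 ± 0.0961 and CTNNB1 at 24.9 ± 1.29 FPKM, which had been apart in the controls, no longer differed beyond their spread. AXIN1 at 10.4 ± 0.607 FPKM stood above TCF7L2 at 5.51 ± 0.186. LRP6 at 2.84 ± 0.246 FPKM was now within the spread of FZD6 at 3.00 ± 0.291, and ZNRF3 at 1.79 ± 0.0493 was below both. The order is a description with no test.

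**Figure D4:**
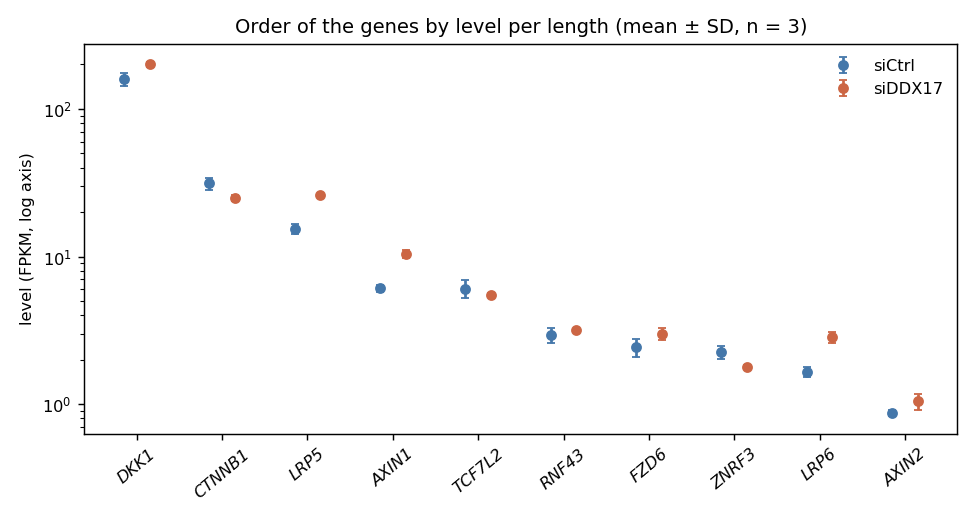
Level of each gene in FPKM (log axis) as mean and SD over the 3 siCtrl and the 3 siDDX17 libraries, with genes in the order of the siCtrl means. DKK1 was highest and AXIN2 lowest in both groups, and CTNNB1 and LRP5, at 31.3 and 15.3 FPKM in siCtrl, came to 24.9 and 26.1 FPKM in siDDX17.

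Around these 10, another 125 pathway genes were listed by role. The lists were also made with earlier results of these data known, so their shares beside those of all genes are descriptions. Of the 125, 119 were matched to the count table and 94 passed the filter. After knockdown 30 rose, 24 fell and 40 did not pass the test, and the median log2 fold change was 0.03. With library size only 36 rose and 17 fell, and with limma on log2(FPKM + 1) 34 rose and 16 fell. All genes tested shifted in the same way, with 5230 higher and 2494 lower, and 5205 higher and 2369 lower. Higher genes thus made up 67.7% and 68.7% of all genes called under these settings. Together 57.4% of the 94 changed, against 48.8% of all genes tested. By more than 1 on the log2 scale 7 rose and 2 fell, where 4.65% of all genes tested rose and 2.92% fell. The 7 include WNT6 and WNT11, which passed the filter only through siDDX17. The genes named are up to 2 with the largest changes in each direction in each list, and those past a log2 fold change of 1. Larger changes in 1 direction can thus be left out. For TCF factors and nuclear cofactors, the other genes that passed are given as well. GSK3A and APC are added for the destruction complex.

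**Figure D5:**
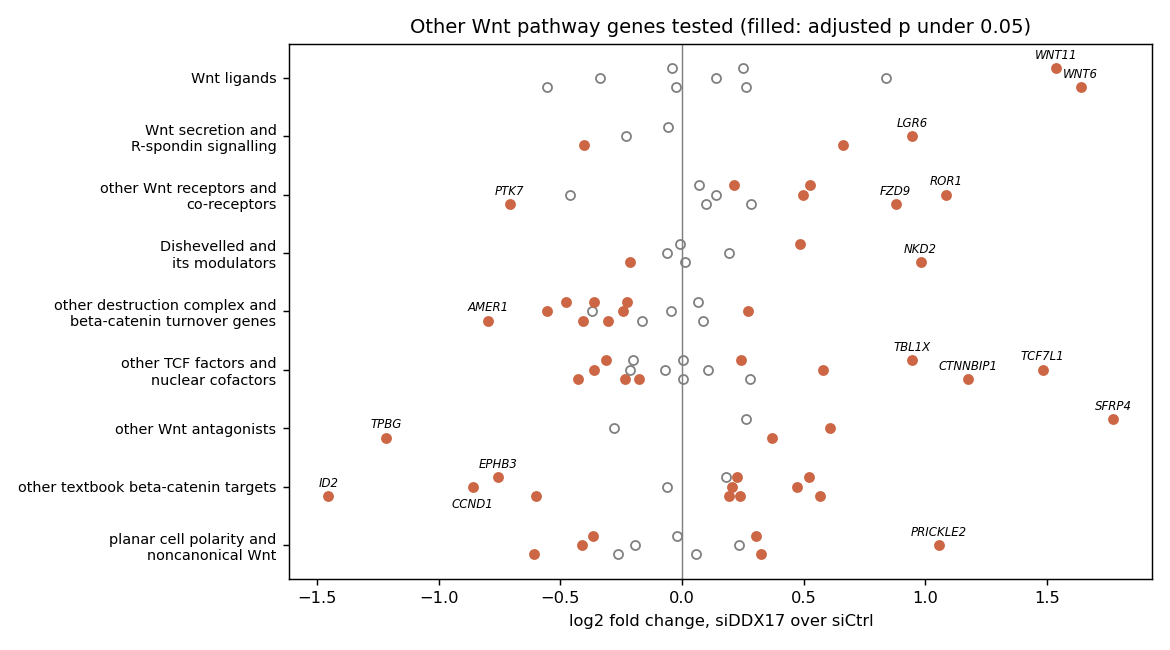
Log2 fold change (siDDX17 over siCtrl) of the 94 other pathway genes tested, in 9 lists by role, filled where the adjusted p was under 0.05, with names for such genes beyond 0.7 in size. Most filled points of the list of destruction complex and beta-catenin turnover genes lie left of 0. The largest changes, among them SFRP4 and ID2, are in other lists.

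Of the Wnt ligands, 10 of 18 passed the filter, and 8 of these did not pass the test, where 48.8% of all genes tested passed it in either direction. The remaining ligands, WNT6 and WNT11, passed the filter only through siDDX17, so that the filter favoured a rise, and neither was tested when at least 10 counts were required in every library. WNT6 had 8, 4 and 5 reads in siCtrl and 22, 19 and 20 reads in siDDX17. WNT11 had 9, 8 and 6 reads in siCtrl and 25, 23 and 29 reads in siDDX17. In the list of Wnt secretion and R-spondin signalling, 2 of 5 rose and 1 fell (24.5% and 24.3% of all genes tested). PORCN, the acyltransferase that adds the lipid Wnt proteins need for secretion, fell (log2 fold change -0.40, adjusted p = 0.00170). RSPO3, a secreted R-spondin that draws RNF43 and ZNRF3 away from Frizzled receptors, was at 102, 110 and 103 CPM in siCtrl and at 169, 165 and 164 CPM in siDDX17. It rose with a log2 fold change of 0.66 (SE 0.0546, adjusted p = 5.23e-07), and its groups were wide apart. LGR6, an R-spondin receptor, rose from 0.796 ± 0.0893 to 1.53 ± 0.232 CPM.

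Of the other receptors, 5 of 11 rose and 1 fell (24.5% and 24.3% of all genes tested), with a median log2 fold change of 0.21. ROR1, a receptor tyrosine kinase that binds WNT5A, was at 6.91, 5.42 and 6.22 CPM in siCtrl and at 12.1, 11.7 and 15.7 CPM in siDDX17. This was the largest rise in the list, with a log2 fold change of 1.09 (SE 0.129, adjusted p = 1.38e-05). FZD9 rose as well, from 1.02 ± 0.168 to 1.88 ± 0.404 CPM, and PTK7, a Wnt co-receptor of planar cell polarity, fell from 7.63 ± 0.590 to 4.67 ± 0.171 CPM (log2 fold change -0.71, adjusted p = 0.000127). Among Dishevelled proteins and their modulators, 2 of 7 rose and 1 fell (24.5% and 24.3% of all genes tested). The Dishevelled inhibitor NKD2 rose from 4.35 ± 0.686 to 8.59 ± 1.12 CPM. Its paralog NKD1 rose by 0.49 on the log2 scale with an adjusted p of 0.0322, which was lost whichever library was left out (log2 fold change 0.43 to 0.51) and with DESeq2 (0.48). DVL3 fell by 0.21 on the log2 scale (adjusted p = 0.0186), and its call was lost without siDDX17 1 (-0.22, adjusted p = 0.0529), without siDDX17 3 (-0.19, adjusted p = 0.0853) and with library size only (-0.09, adjusted p = 0.321).

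Beyond AXIN1 and AXIN2, most changes in the list of other destruction complex and beta-catenin turnover genes were falls. Of its 14 genes 8 fell, 1 rose and 5 did not pass, where 24.3% of all genes tested fell and 24.5% rose, with a median log2 fold change of -0.27 against 0.01 over all genes tested. AMER1, which brings the complex to the membrane, fell from 5.80 ± 0.360 to 3.33 ± 0.450 CPM (log2 fold change -0.80, adjusted p = 0.000230), and SIAH1, a ubiquitin ligase that can act on beta-catenin, fell from 17.7 ± 3.41 to 12.0 ± 0.485 CPM (log2 fold change -0.55, adjusted p = 0.00143). The gene that rose was GSK3B, a kinase that marks beta-catenin for degradation, at 38.2, 33.1 and 34.5 CPM in siCtrl and 42.2, 42.7 and 43.0 CPM in siDDX17. Its log2 fold change was 0.27 (SE 0.0659, adjusted p = 0.00389), and its groups did not overlap. The paralog GSK3A was among the genes that fell (log2 fold change -0.31, adjusted p = 0.000928). GSK3A had more RNA per length, at a mean of 43.5 FPKM in siCtrl against 4.17 FPKM for GSK3B. APC was also among the falls (log2 fold change -0.48, adjusted p = 0.00638).

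Of the TCF factors and nuclear cofactors, 5 of 17 rose and 5 fell, near the shares of all genes tested (24.5% and 24.3%). CTNNBIP1, a small protein that keeps beta-catenin from TCF factors, was at 5.43, 5.73 and 6.73 CPM in siCtrl and at 12.6, 13.6 and 14.3 CPM in siDDX17. It rose with a log2 fold change of 1.18 (SE 0.103, adjusted p = 8.67e-07). TCF7L1, a TCF factor known mainly as a repressor, rose from 1.07 ± 0.0875 to 3.00 ± 0.776 CPM, opposite in direction to TCF7L2. The coactivators PYGO1 and EP300 fell, by 0.43 and 0.36 on the log2 scale, and the adjusted p of PYGO1 (0.0261) was lost without siDDX17 1 or without siDDX17 3 (log2 fold change -0.42 and -0.34). With library size only neither passed, PYGO1 at -0.31 (adjusted p = 0.102) and EP300 at -0.24 (adjusted p = 0.0858). Nor did they with limma on log2(FPKM + 1), at -0.08 and -0.15 (adjusted p = 0.137 and 0.190). Cofactors moved both ways. TBL1X, TLE3 and BCL9 also rose (log2 fold change 0.95, 0.58 and 0.24, adjusted p = 4.35e-07, 1.78e-05 and 0.0198). BCL9L, TBL1XR1 and TLE1 also fell (log2 fold change -0.31, -0.23 and -0.18, adjusted p = 0.000401, 0.0418 and 0.0194). Of the other antagonists, 3 of 6 rose and 1 fell (24.5% and 24.3% of all genes tested). SFRP4, a secreted protein that binds Wnt ligands, rose from 1.82 ± 0.241 to 6.23 ± 0.252 CPM (log2 fold change 1.77, adjusted p = 3.03e-07), and DKK3, a divergent relative of DKK1, rose by 0.61 on the log2 scale. TPBG, a membrane protein that inhibits the pathway, was at 64.3, 61.2 and 69.3 CPM in siCtrl and at 28.2, 28.5 and 27.2 CPM in siDDX17. It fell by 1.22 on the log2 scale (SE 0.0636, adjusted p = 1.00e-08), so the antagonists did not move in 1 direction.

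Of the textbook target genes of beta-catenin other than AXIN2, 7 of 13 rose and 4 fell, where 24.5% of all genes tested rose and 24.3% fell. CCND1, which drives entry into S phase, was at 655, 662 and 682 CPM in siCtrl and at 367, 363 and 371 CPM in siDDX17. It fell by 0.86 on the log2 scale (SE 0.0527, adjusted p = 3.93e-08), and libraries of a group were close to each other. ID2, an inhibitor of helix-loop-helix factors, fell from 86.5 ± 10.6 to 31.6 ± 1.63 CPM (log2 fold change -1.45, adjusted p = 2.23e-08). MMP7, a matrix protease, rose from 36.4 ± 1.40 to 52.3 ± 3.16 CPM, and SOX9, a transcription factor of epithelial progenitors, from 21.5 ± 3.56 to 32.0 ± 2.34 CPM. These genes answer to many other inputs, and their part in the pathway here was not tested. Of the planar cell polarity genes, 3 of 11 rose and 3 fell, again near the shares of all genes (24.5% and 24.3%). PRICKLE2 rose from 10.6 ± 0.974 to 22.2 ± 1.37 CPM (log2 fold change 1.06, adjusted p = 5.51e-07) and VANGL1 by 0.33 on the log2 scale, whereas the cadherins CELSR1 and CELSR2 fell by 0.41 and 0.61.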

How the data were processed

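Counts and FPKM of 3 siCtrl and 3 siDDX17 A549 libraries were used. The authors trimmed and mapped reads to GRCh38 with TopHat2, allowing 4 mismatches, kept uniquely mapped reads, and deposited raw counts per gene for each library. The deposited FPKM, rounded by the authors, cover 29242 of the 29476 genes. The counting program, annotation release and use of strand are not given in the sources used here, so counts of overlapping genes are uncertain. The 10 genes, the lists and the naming rule (in each list up to 2 genes higher and 2 lower with the largest change and a mean of at least 1 CPM, and every gene past a log2 fold change of 1) were chosen with earlier results of these data known. Counts were scaled by TMM, filtered by filterByExpr (15615 genes kept) and fitted with glmQLFit and glmQLFTest of edgeR 4.0.16 in R 4.3.3, with Benjamini-Hochberg adjustment. The SE is the log2 fold change divided by the root of F. Scaling decides direction and filtering the number of tests, so both were varied, along with DESeq2 1.42.0, limma 3.58.1 on log2(FPKM + 1) and log2(FPKM + 0.1), the replicate number as a block, 2 stricter call limits and each library left out. Permutation tests of log2 CPM (prior count 2) or log2 ratios used all 20 splits. Coordinates and exons are from GENCODE 44, matched by identifier, and sequences from RefSeq (GRCh38.p14). Depth was 30658136 to 39182371 reads, and SEs of the 10 genes were 0.0639 to 0.129. Python 3.11.15, numpy 2.4.6, pandas 2.3.3 and matplotlib 3.10.9 were used. Splicing, TCGA samples and the cell assays were not analysed here.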

Additional observations from a re-analysis of the deposited data

How the results depend on the processing

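Of the 10 genes, 6 (LRP5, LRP6, CTNNB1, AXIN1, AXIN2 and ZNRF3) kept their direction and their side of the threshold in all 14 alternative fits. Scaling by library size only shifted the all-gene median log2 fold change from 0.01 to 0.13 and the share of higher genes among those called from 50.1% to 67.7%, and it gave 5 higher and 2 lower of the 10 genes. TCF7L2 then came to -0.14, and to -0.11 and -0.13 with limma on log2(FPKM + 1) and log2(FPKM + 0.1), and missed the threshold (adjusted p 0.228, 0.320 and 0.312), while FZD6 passed at 0.30. RNF43 changed sign to 0.12 with library size only, 0.00412 with at least 10 counts in every library, and 0.0947 and 0.123 with limma, with an adjusted p of 0.278 or more, and DDX5, the paralog of DDX17 (-0.11, adjusted p = 0.142), to 0.0138, 0.0186 and 0.0187. With an absolute log2 fold change over 1, 0 genes counted as higher and 0 as lower among the 10, and 7 and 2 among the other pathway genes. Of all genes tested, 4.65% and 2.92% did. The 7 include WNT6 and WNT11, which passed the filter only through siDDX17. With the limits of the study's methods, 0 of the 10 were lower, and 13 and 8 of the others were higher and lower. Of all genes tested, 11% and 8.03% were, and WNT6 and WNT11 are again among the higher ones.

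With single libraries left out, 3 to 5 of the 10 genes were higher and 2 to 3 lower, and 25 to 31 and 20 to 27 of the others. Calls over all genes varied too. They were fewest without siDDX17 3 (3189 higher and 3101 lower of 15837) and most without siCtrl 1 (4220 and 4312 of 15996). Log2 fold changes ran from 0.10 to 0.27 for FZD6 (passed without siCtrl 1), from -0.34 to -0.18 for TCF7L2, from -0.123 to 0.0416 for RNF43, from 0.13 to 0.26 for DKK1, and from -0.16 to -0.08 for DDX5 (passed without siCtrl 1, adjusted p = 0.00430), and the LRP5 to LRP6 difference from -0.0845 to 0.0308. It changed sign without siCtrl 2 (0.0117), siDDX17 1 (0.00773) or siDDX17 3 (0.0308). Same-numbered libraries correlated at 0.00698, 0.0407 and -0.0564 in their deviations from group means. With 3 libraries a group, such values cannot show whether same-numbered samples were handled together. The replicate block left 4 higher and 3 lower of the 10 genes and 30 and 23 of the others, with 3743 and 3738 of all 15615 genes. AXIN2 had the fewest reads and the highest SE, 0.129, of the 10, and counting error and spread between libraries were not separated. Among the other genes named by the rule, DVL3, NKD1, PYGO1 and EP300 lost their call in at least 1 alternative.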
